A study of Mus musculus with 62 samples.

Results

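The 10 genes described here are markers of tissue-resident and infiltrating macrophages, followed in diaphragm muscle while melanoma xenografts grew. They were taken by symbol from the deposited table: Cd68, Adgre1, Csf1r, Cd163, Mrc1, Lyve1, C1qa, C1qb, C1qc and Itgam. All 10 were found, on 11 of the 47643 rows, because Itgam has 2 rows. The samples were 62 diaphragms from female mice aged 2 months at injection. Mice received cachectic melanoma cells, non-cachectic melanoma cells or a mock injection of saline, and diaphragms were taken 2, 4, 6 or 8 weeks later. Of the 12 conditions, 11 held 5 mice, and the cachectic condition at 8 weeks held 7. The cachectic and the non-cachectic cells were each a human patient-derived xenograft line, MAST360B and MAST552A, so the cachectic state and the identity of the line cannot be told apart. The sample labels give the strain as C57BL6/J, whereas the design text and the methods give NCI Ath/nude mice, which lack mature T cells. The T-cell gene Cd3e was at 0.267 TPM or less in every mouse. This does not settle the strain, since no reference diaphragm of known strain was measured.

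Macrophages live in skeletal muscle between the fibers and around vessels, where they clear debris and apoptotic cells and help repair. Their survival depends on CSF1R, the receptor for CSF1 and IL-34. Long-lived resident cells carry scavenger and endocytic receptors such as CD163, the mannose receptor MRC1 (CD206) and, in some cells, LYVE1. F4/80 (Adgre1) and the integrin CD11b (Itgam) are general macrophage and myeloid surface proteins. C1QA, C1QB and C1QC are the chains of C1q, which opens the classical complement pathway and is made mostly by macrophages.

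Values are TPM, transcript abundances scaled for transcript length and to the same total in every mouse. In whole muscle, fewer cells of a type and less RNA per cell cannot be told apart. Fold changes are differences of mean log2(TPM + 1), a scale that understates changes of low genes. They were tested with limma on 13578 genes, and a gene is called where the p-value, adjusted over all genes tested within a comparison, is under 0.05. Comparisons of cachectic mice with the other groups share the same cachectic mice, and comparisons with control share the same control mice.

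Skeletal muscle markers summed to between 38246 and 90745 TPM in the 62 libraries, so each library carried the transcripts of its labelled tissue. Mitochondrially encoded transcripts took 32.5% to 61.5% of the TPM. Their share moved with the groups: at 6 weeks it was 34.3% to 44.896% in cachectic and 44.9197% to 47.9% in control mice, and at 8 weeks it was 32.5% to 41.6% in 6 cachectic mice, 57.1% in replicate 3, and 40.9% to 49.3% in control mice. After rescaling without mitochondrially encoded genes, the log2 fold change of cachectic against control mice was 1.61 at 6 weeks and 1.47 at 8 weeks for Cd163 and 1.12 and 0.85 for Mrc1, all called. Between 15069 and 19057 genes were above 0, with a median of 18296. The 4 libraries listing the fewest genes included 3 of the 2-week mice (cachectic replicates 3 and 4, non-cachectic replicate 5) and, among the 8-week mice, cachectic replicate 3. Hepatocyte markers were highest in 3 of the 2-week control mice (replicates 2, 4 and 5) and, among the 6-week mice, in cachectic replicate 5. Some of the results that rest on these libraries are given below with and without them.

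The promoters of the members that moved most are shown because these genes differed from the other members in the same libraries. RefSeq promoters (GRCm38.p6) were matched for 6 of the 10 members, as the 250 bases before the start site, trimmed to bases upstream of the gene body. Capitals mark the letters GAGGAA, the core bound by the macrophage factor PU.1 and other ETS proteins, or TTCCTC, the same site on the other strand. Cd163 lies on chromosome 6 (GRCm38, 124304656-124330527, plus strand), and its window is chr6:124304401-124304650. Mrc1 lies on chromosome 2 (14229392-14332057, plus strand), with the window chr2:14229164-14229391. The C1q genes form a cluster on the minus strand of chromosome 4: C1qb at 136880129-136886187, C1qc at 136889804-136893065 and C1qa at 136895917-136898803. The C1qb window is chr4:136886201-136886450 and the C1qc window chr4:136893066-136893164.
Cd163: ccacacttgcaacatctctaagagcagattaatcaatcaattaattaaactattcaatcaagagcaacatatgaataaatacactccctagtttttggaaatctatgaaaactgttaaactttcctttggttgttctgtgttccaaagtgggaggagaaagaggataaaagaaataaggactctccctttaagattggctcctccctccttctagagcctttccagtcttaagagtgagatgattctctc
Mrc1: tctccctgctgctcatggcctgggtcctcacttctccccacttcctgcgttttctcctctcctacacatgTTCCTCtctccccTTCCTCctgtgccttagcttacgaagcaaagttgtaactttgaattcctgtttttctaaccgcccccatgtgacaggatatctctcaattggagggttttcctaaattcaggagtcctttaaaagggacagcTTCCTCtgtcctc
C1qb: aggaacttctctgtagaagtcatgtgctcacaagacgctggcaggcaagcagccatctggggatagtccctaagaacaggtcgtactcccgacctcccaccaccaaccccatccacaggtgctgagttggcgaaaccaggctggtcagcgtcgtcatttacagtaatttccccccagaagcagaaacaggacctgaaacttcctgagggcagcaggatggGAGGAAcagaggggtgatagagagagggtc
C1qc: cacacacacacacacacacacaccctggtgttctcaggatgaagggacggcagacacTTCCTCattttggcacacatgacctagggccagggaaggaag

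GAGGAA, read on both strands, occurred at 3 sites before Mrc1, 180, 167 and 35 bases before the start. C1qb had 1 site and C1qc 1, and none was found for Cd163. Of the other matched members, Itgam had 2 sites and Cd68 1. Sites were counted in the whole 250 bases before trimming, and 23.3% of the 32851 mouse promoters hold these letters in the same 250 bases. The AP-1 letters TGANTCA were found only before Cd68 among the 6 (6.75% of all promoters). A match is a description of the letters and not evidence of binding.

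The scavenger and endocytic receptors Cd163 and Mrc1 rose in cachectic mice at 6 and 8 weeks, relative to both other groups. The C1q chains rose with them at 8 weeks, and C1qb alone passed the test at 6 weeks against control. These calls are from limma with all 12 conditions in the fit. Dunn's test, the test the study used, called no member after adjustment over all genes. Dunn's adjusted p was 0.0641 to 0.151 for Cd163 and Mrc1 in these comparisons. The study's methods give cutoffs on p and on the log2 ratio and name no adjustment over all genes. Unadjusted Dunn counts are given in the last section. With only the groups compared in the fit, none of the 5 calls against non-cachectic mice at 8 weeks was kept (adjusted p = 0.0564 for Cd163 and 0.0678 for Mrc1), and against control Mrc1 was not called (adjusted p = 0.0843). General macrophage markers (Cd68, Adgre1, Csf1r, Itgam) passed no test in either comparison at 6 or 8 weeks. No member passed the test between non-cachectic and control mice at any week. Against control, 3 of the 10 members tested rose at 6 weeks, where 5.62% of all genes tested rose, and 5 of 10 at 8 weeks, where 6.65% of all genes did. Against non-cachectic mice, 2 of 10 rose at 6 weeks (4.28% of all genes) and 5 of 10 at 8 weeks (6.75%). The median log2 fold change of the members against control was 0.90 at 6 weeks and 0.74 at 8 weeks, beside 0.17 and -0.09 over all genes tested.

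**Figure D1:**
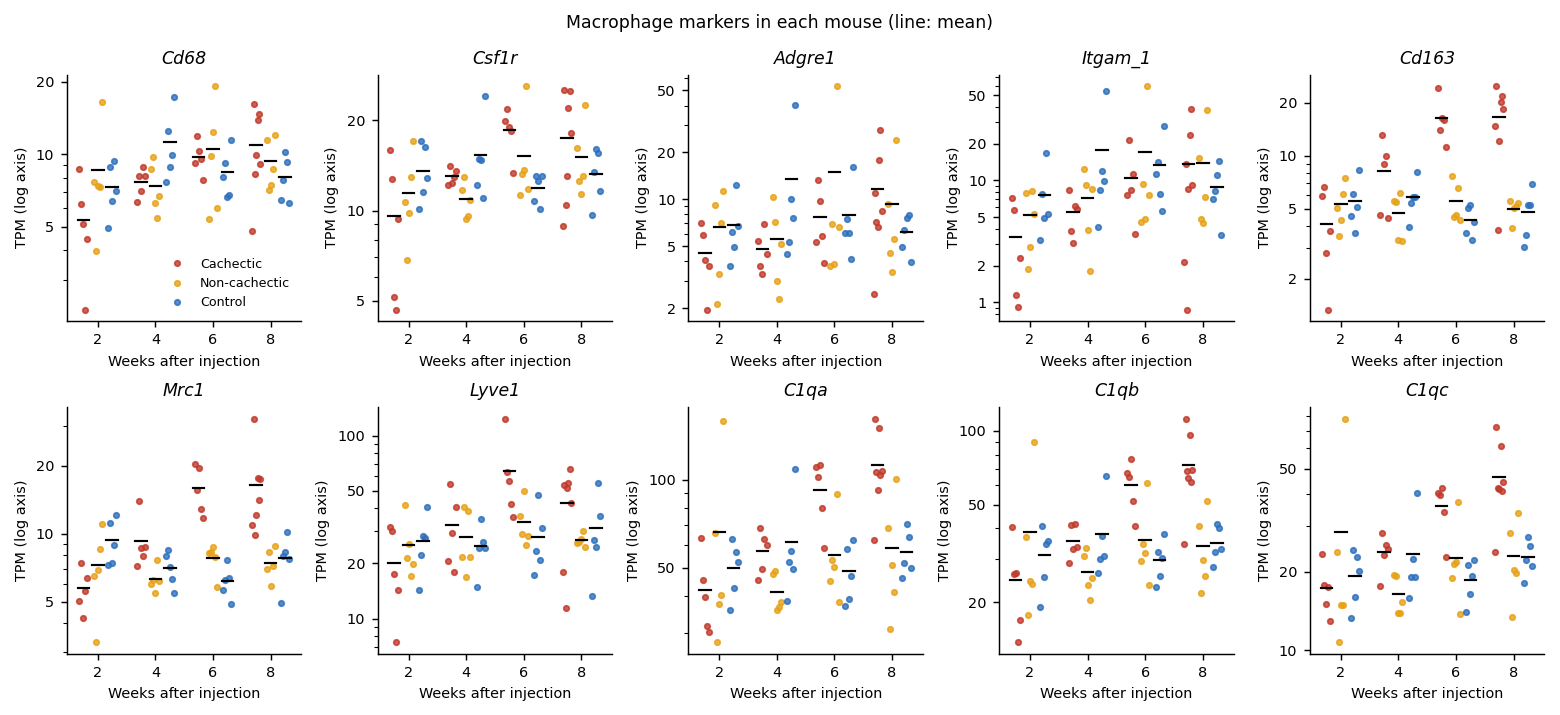
TPM of the members (log axis) in every mouse, by group and week. Points are mice, lines mark the condition mean, and Itgam_1 is the first of the 2 Itgam rows. Cd163 and Mrc1 in cachectic mice at 6 and 8 weeks lie above nearly all mice of the other groups, whereas Adgre1 and Itgam show single high mice in several groups.

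Cd163 is the receptor that takes up hemoglobin-haptoglobin complexes. At 6 weeks it was at 24.3, 14.0, 16.3, 15.9 and 11.3 TPM in the 5 cachectic mice. The control mice had 3.66, 5.07, 5.28, 3.34 and 4.22 TPM, and the non-cachectic mice had 7.67, 4.52, 4.62, 6.55 and 4.31 TPM. Every cachectic mouse was above every mouse of the other groups, an order found for 15.9% of all genes tested in the comparison with control and 13.6% in that with non-cachectic mice. The mean was 16.4 ± 4.8 TPM in cachectic and 4.31 ± 0.85 TPM in control mice (SD, n = 5), a log2 fold change of 1.68 ± 0.30 (SE; limma, adjusted p = 0.000114). Against non-cachectic mice the log2 fold change was 1.40 (adjusted p = 0.00172).

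At 8 weeks the 7 cachectic mice had between 3.81 and 24.97 TPM of Cd163, with a median of 18.4. Control mice had 3.02, 3.54, 5.23, 5.24 and 6.92 TPM, and non-cachectic mice 5.55, 3.87, 5.05, 5.19 and 5.42 TPM. In 6 of the 7 cachectic mice Cd163 was above every mouse of the other groups. The exception, replicate 3 at 3.81 TPM, is one of the libraries listing the fewest genes. The log2 fold change against control was 1.49 ± 0.27 (limma, adjusted p = 7.76e-05) with this library and 1.78 without the libraries listing the fewest genes. Against non-cachectic mice it was 1.40 (adjusted p = 0.000212).

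Before that, the means of Cd163 in cachectic mice were lower. In cachectic mice the mean was 4.09 ± 2.2 TPM at 2 weeks, the lowest of the 12 conditions, and 8.23 ± 3.7 TPM at 4 weeks, the third highest. The means of the control and non-cachectic conditions at all 4 weeks lay between 4.31 and 5.83 TPM. At 4 weeks the cachectic mice had 4.60, 13.1, 8.99, 9.99 and 4.46 TPM and overlapped with control mice at 3.94, 5.40, 5.86, 5.87 and 8.07 TPM.

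Mrc1, the mannose receptor, which binds and internalizes glycoproteins, followed the same course with less spread. At 6 weeks cachectic mice had 20.3, 15.6, 19.5, 12.9 and 11.7 TPM. Control mice had 5.65, 6.23, 7.66, 6.39 and 4.87 TPM and non-cachectic mice 8.17, 8.31, 8.74, 7.91 and 5.81 TPM. There was no overlap with either group. Mrc1 rose by a log2 fold change of 1.23 ± 0.21 against control (limma, adjusted p = 8.75e-05) and by 0.93 against non-cachectic mice (adjusted p = 0.00371).

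At 8 weeks Mrc1 ranged from 9.83 to 32.3 TPM with a median of 14.1 in the 7 cachectic mice. Control mice had 4.92, 7.98, 8.25, 10.2 and 7.69 TPM, and non-cachectic mice had 6.95, 8.32, 5.89, 7.18 and 8.81 TPM. All 7 cachectic mice were above every non-cachectic mouse, as for 2.45% of all genes tested, and 6 of 7 above every control mouse. The log2 fold change was 0.91 ± 0.20 against control (limma, adjusted p = 0.000649) and 0.96 against non-cachectic mice (adjusted p = 0.00041). At 2 weeks, in contrast, Mrc1 had the lowest mean of all conditions in cachectic mice. The same held for Cd68, Adgre1, Csf1r, Cd163, Lyve1, C1qb and the first Itgam row, and C1qa and C1qc were second lowest there. Cachectic replicates 3 and 4 at 2 weeks are among the libraries listing the fewest genes.

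The 2-week values of Mrc1 were 5.05, 7.41, 4.23, 5.58 and 6.34 TPM in cachectic and 7.27, 11.1, 7.38, 8.89 and 12.1 TPM in control mice. Only the highest cachectic mouse overlapped with the control mice. Mrc1 differed by a log2 fold change of -0.61 (limma, adjusted p = 0.0303), and this was the only member called at 2 weeks. At that week 27.8% of all genes tested were called lower in cachectic than in control mice, and the median of all genes was -0.42. The call was lost without the libraries listing the fewest genes, without those highest in hepatocyte markers, and under each other scaling of the values.

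The 3 chains of C1q varied together. At 6 weeks C1qb was at 67.5, 64.7, 76.7, 51.9 and 40.9 TPM in cachectic mice. It was at 23.1, 32.2, 25.6, 30.3 and 37.9 TPM in control and at 29.4, 34.4, 31.7, 61.1 and 23.6 TPM in non-cachectic mice. Every cachectic mouse was above every control mouse, and 3 of 5 above every non-cachectic mouse, because non-cachectic replicate 4 was high.

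C1qb rose against control at 6 weeks (log2 fold change 0.98 ± 0.30; limma, adjusted p = 0.0319). The call was fragile: it held in 3 of the 10 fits that each left out 1 library of these groups, and was lost without any of cachectic replicates 1, 2 and 3 or control replicates 1, 2, 3 and 4, with log2 fold changes between 0.89 and 1.11 over the 10 fits. It was also lost under median-ratio scaling (log2 fold change 0.79, adjusted p = 0.17), quantile normalization and rescaling without mitochondrially encoded genes (0.82, adjusted p = 0.0894). C1qa (0.90, adjusted p = 0.0521) and C1qc (0.89, adjusted p = 0.0551) just missed the threshold. Without the libraries listing the fewest genes, which include none of these groups and act on the shared spread, adjusted p was 0.00741 for C1qa, 0.00355 for C1qb and 0.00479 for C1qc. Against non-cachectic mice none of the 3 was called at 6 weeks, with log2 fold changes of 0.76, 0.77 and 0.68.

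C1q was highest at 8 weeks in cachectic mice. C1qa ranged from 62.1 to 162 TPM with a median of 107, C1qb from 34.6 to 112 with a median of 68.6, and C1qc from 23.9 to 72.0 with a median of 42.0. For each chain 6 of 7 mice were above every control mouse, and replicate 1 was the lowest. The control means were 56.5 ± 10, 35.0 ± 5.8 and 22.8 ± 3.6 TPM (SD, n = 5). Log2 fold changes against control were 0.93 for C1qa, 0.97 for C1qb and 0.94 for C1qc (limma, adjusted p = 0.0141, 0.0104 and 0.0123). Against non-cachectic mice they were 0.98, 1.06 and 0.98 (adjusted p = 0.0105, 0.00518 and 0.0101). Without non-cachectic replicate 2, which had the lowest C1q of its group, C1qa and C1qc lost the second call at log2 fold changes of 0.78 and 0.81. With only the groups compared in the fit, all 3 chains lost it (adjusted p = 0.107 for C1qa, 0.0726 for C1qb and 0.0843 for C1qc).

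Lyve1, a hyaluronan receptor on some resident macrophages and on lymphatic endothelium, had its highest mean in cachectic mice at 6 weeks. The mice had 124, 63.0, 56.3, 42.4 and 36.1 TPM, against 17.3, 23.5, 47.2, 20.8 and 31.3 TPM in control and 36.4, 29.2, 49.96, 25.2 and 28.3 TPM in non-cachectic mice. In 3 of 5 cachectic mice Lyve1 was above every control mouse. Lyve1 differed by a log2 fold change of 1.12 with a 95% interval of 0.36 to 1.89 (limma, adjusted p = 0.0633), so the test was missed. Without the libraries highest in hepatocyte markers it was 1.29 (adjusted p = 0.039), and without the libraries listing the fewest genes adjusted p was 0.0104. At 8 weeks the 7 cachectic mice had 11.3 to 65.8 TPM, overlapping with control mice at 13.3 to 54.8 TPM (log2 fold change 0.37, adjusted p = 0.543).

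The genes whose deviations from the condition means were most like those of Lyve1 were Reln (Pearson r = 0.874, Spearman rho = 0.862, 62 mice), Ccl21a (0.851, 0.833) and Mmrn1 (0.841, 0.821). All 3 are known from lymphatic endothelium. The 8 lymphatic endothelial markers tested had a median log2 fold change of 0.57 at 6 weeks against control with none called. Their summed level was 518 to 1438 TPM in cachectic and 336 to 688 TPM in control mice. The part of lymphatic vessels in the Lyve1 values was not tested.

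**Figure D2:**
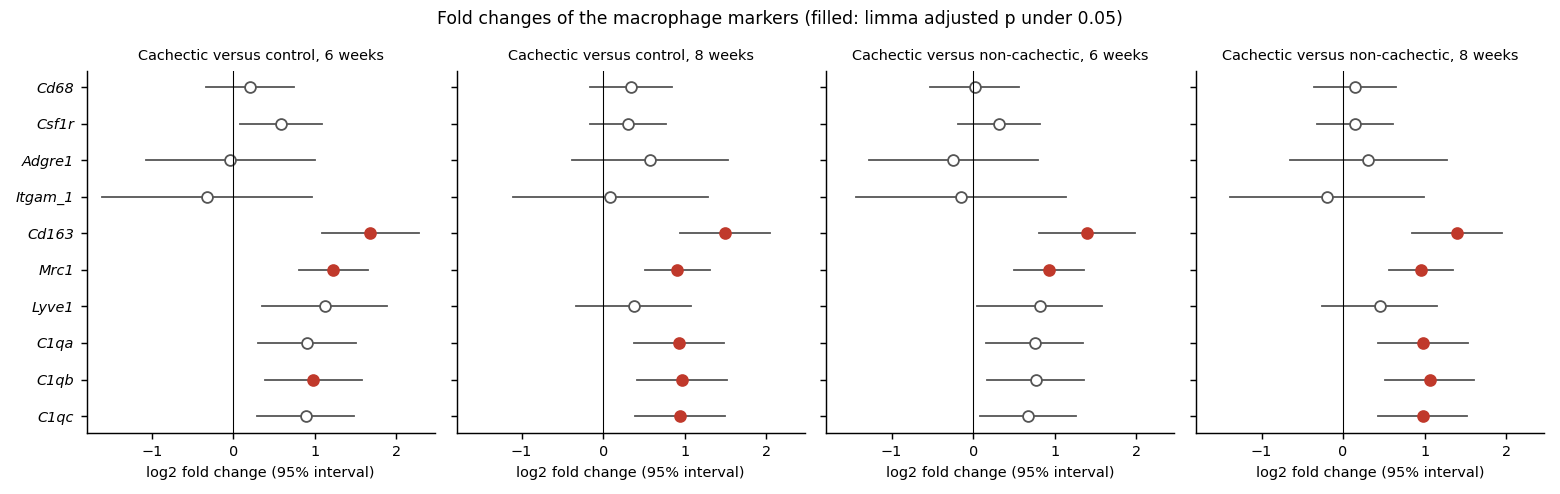
Log2 fold changes of the members, cachectic against control and against non-cachectic mice, at 6 and 8 weeks. Points are limma estimates on the log2(TPM + 1) scale, filled where adjusted p was under 0.05, and lines are 95% intervals. Cd163 and Mrc1 lie above 0 at 6 and 8 weeks in both comparisons, and Cd68, Adgre1 and Itgam have intervals that include 0.

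The receptor Csf1r was measured at 19.9, 21.7, 19.0, 18.5 and 13.4 TPM in cachectic mice at 6 weeks. Control mice had 10.74, 13.02, 12.55, 10.12 and 12.999 TPM, so that the groups did not overlap. Groups without overlap, with cachectic mice higher, were found for 5 of the 10 members (Csf1r, Cd163, Mrc1, C1qb and C1qc) and for 15.9% of all genes tested. The log2 fold change of Csf1r was 0.59 with an interval of 0.09 to 1.09 (limma, adjusted p = 0.156). It was called (adjusted p = 0.0305) without the libraries listing the fewest genes. At 8 weeks it ranged from 8.88 to 25.1 TPM with a median of 18.1 in cachectic mice, and 4 of 7 were above every control mouse (log2 fold change 0.30, interval -0.16 to 0.77, adjusted p = 0.431).

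Cd68, a lysosomal membrane glycoprotein of phagocytes (chromosome 11, 69664213-69666153, minus strand), had 9.21, 11.8, 10.3, 9.56 and 7.82 TPM in cachectic mice at 6 weeks. The control mice had 8.03, 9.19, 6.62, 6.75 and 11.4 TPM, and the groups overlapped. Their log2 fold change was 0.21 (limma, adjusted p = 0.716), and at 8 weeks it was 0.35 with an interval of -0.16 to 0.85 (adjusted p = 0.406). Its highest condition mean, 11.2 ± 3.8 TPM, was that of control mice at 4 weeks.

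Adgre1, which encodes F4/80 (chromosome 17, 57358691-57483527, plus strand), had no such order by group. At 6 weeks cachectic mice had 5.34, 13.4, 9.79, 5.79 and 3.90 TPM and control mice 6.04, 7.51, 6.07, 4.15 and 16.1 TPM. Non-cachectic mice had 3.71, 6.93, 3.86, 53.6 and 6.63 TPM, so that replicate 4 alone set the highest condition mean, 14.9 ± 22 TPM. The log2 fold change of cachectic against control mice was -0.04 at 6 weeks (limma, adjusted p = 0.977). At 8 weeks cachectic mice ranged from 2.46 to 27.8 TPM with a median of 8.39, and the log2 fold change was 0.57 with an interval of -0.39 to 1.53 (adjusted p = 0.481). The interval does not leave out a change as large as that of Mrc1.

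Itgam, the alpha chain of CD11b/CD18 (chromosome 7, 128062640-128118491, plus strand), is given on 2 rows. A second annotated gene, Gm49368, lies over the same stretch (128062683-128128160, plus strand), and reads of the shared exons cannot be assigned to either with certainty. The second row was at 0.260 TPM or less in every mouse and was not tested. The first row ranged from 0.870 to 59.8 TPM, the widest relative range of the members.

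On that row the cachectic mice had 7.63, 21.5, 8.36, 11.3 and 3.60 TPM at 6 weeks. Control mice had 11.2, 14.1, 7.78, 5.60 and 27.9 TPM. The groups overlapped, with 1 cachectic mouse below the lowest control mouse, and the log2 fold change of Itgam was -0.32 at 6 weeks and 0.09 at 8 weeks (limma, adjusted p = 0.821 and 0.949). The SD within conditions, on the log2 scale, was 1.04 for Itgam and 0.84 for Adgre1, and 0.34 for Mrc1, the smallest among the members tested.

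Adgre1 and Itgam varied together from mouse to mouse. Over the 62 mice, after subtraction of the condition means, Pearson r was 0.91 between Adgre1 and Itgam (Spearman rho 0.92), whereas it was 0.17 between Adgre1 and Mrc1 and 0.20 between Itgam and Mrc1. The C1q chains were the closest of the 45 pairs, at 0.97 for C1qa with C1qb, 0.97 for C1qa with C1qc and 0.94 for C1qb with C1qc. Csf1r was closest to Cd68 among the members (0.86). Cd163 had r = 0.64 with Lyve1 (rho 0.53), 0.63 with Csf1r (rho 0.63), 0.58 with Mrc1 and 0.35 with Adgre1. All points of a mouse come from 1 library, so its composition and depth enter every pair.

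**Figure D3:**
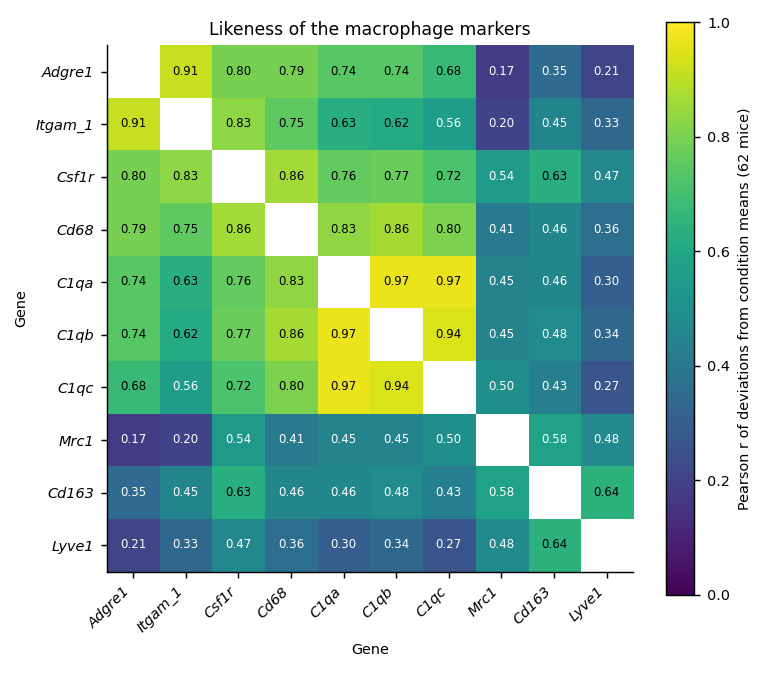
Pearson r between members over 62 mice, after subtraction of the condition means of log2(TPM + 1), with r printed in each cell and yellow for the highest. The C1q chains (0.94 to 0.97) and Adgre1 with Itgam (0.91) form the tightest blocks, and Mrc1 with Adgre1 (0.17) is the lowest cell.

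The mice highest in Adgre1 and Itgam were also highest in markers of large peritoneal macrophages, which lie beside the diaphragm in the abdominal cavity. The list held Gata6, Icam2, Prg4, Alox15, F5, Selp, Cd5l and Garnl3. In deviations from the condition means, r with the mean of this list was 0.96 for Itgam, 0.93 for Adgre1, 0.83 for Csf1r and 0.78 for Cd68. It was 0.62 to 0.68 for the C1q chains, 0.38 for Cd163, 0.29 for Lyve1 and 0.16 for Mrc1. Selp is also expressed by platelets and endothelium, and Alox15 by eosinophils. Cd5l is also in the Kupffer cell list used below, so the list is not specific to peritoneal macrophages.

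The list was highest in non-cachectic replicate 4 at 6 weeks, at a summed 456 TPM with Adgre1 at 53.6 and Cd163 at 6.55 TPM. Next were control replicate 5 at 4 weeks (Adgre1 40.1, Cd163 8.07 TPM) and, at 8 weeks, cachectic replicate 6 (Adgre1 27.8, Cd163 21.9 TPM) and non-cachectic replicate 5 (Adgre1 24.1, Cd163 5.42 TPM). These 4 libraries come from all 3 groups. In non-cachectic replicate 4 at 6 weeks, monocyte and recruited macrophage genes also summed to 2011 TPM, beside a condition median of 83.9 TPM. Macrophage activation genes summed to 3144 TPM there, beside a median of 67.1 TPM. Of the 7 peritoneal list genes tested, none was called between cachectic and control mice at 6 or 8 weeks. At 8 weeks the summed level was 40.1 to 360 TPM in cachectic and 38.2 to 101 TPM in control mice.

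Without these 4 libraries, an alternative added after the data were seen, the 8-week log2 fold change against control was 1.40 for Cd163 (limma, adjusted p = 0.000507), 0.93 for Mrc1 (adjusted p = 0.00149) and 0.99 for C1qb. It was 0.33 in place of 0.57 for Adgre1 (adjusted p = 0.576) and -0.25 in place of 0.09 for Itgam (adjusted p = 0.778). The libraries were chosen by a list that Adgre1 and Itgam followed closely (r = 0.93 and 0.96). Lower values of both therefore follow from the choice, and their contrast with Cd163 and Mrc1 here is no result. At 6 weeks C1qa and C1qc passed the test (adjusted p = 0.0313 and 0.0415).

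**Figure D4:**
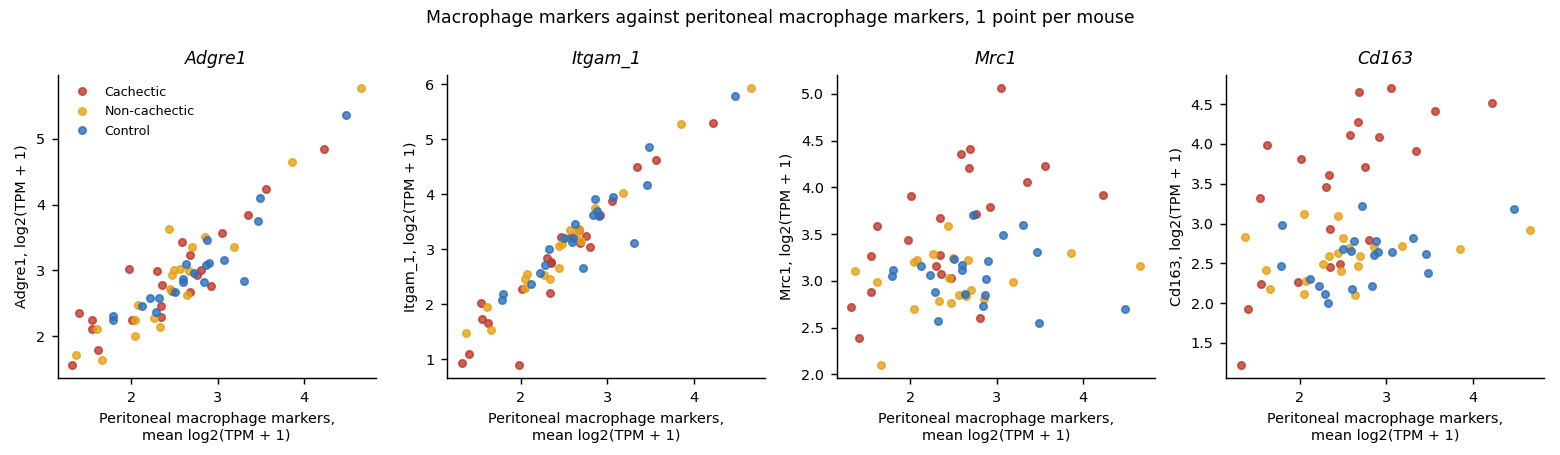
Adgre1, Itgam, Mrc1 and Cd163 against the mean of the peritoneal macrophage list, both as log2(TPM + 1), in 62 mice colored by group. Adgre1 and Itgam climb with the list in mice of all groups, and high Cd163 values in cachectic mice occur at low and high list values alike.

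Dividing each member by Csf1r in the same mouse gives its level relative to a general macrophage transcript. Csf1r itself was above the highest control mouse in all 5 cachectic mice at 6 weeks. Its deviations also followed the peritoneal macrophage list (r = 0.83), so the ratio is not a level per macrophage. At 6 weeks the log2 ratio of Cd163 to Csf1r was -0.20 ± 0.33 in cachectic and -1.48 ± 0.16 in control mice (SD, n = 5), a difference of 1.27, and each of the 5 cachectic mice was above every control mouse. At 8 weeks it was -0.16 ± 0.65 and -1.51 ± 0.45, a difference of 1.35, with 6 of 7 mice above. The non-cachectic mean at 8 weeks differed from control by -0.05.

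The log2 ratio of Mrc1 to Csf1r exceeded that of control mice by 0.73 in cachectic mice at 6 weeks and by 0.68 at 8 weeks. The C1q chains were higher by 0.29 to 0.38 at 6 weeks and by 0.62 to 0.67 at 8 weeks, in 6 of 7 mice for each chain at 8 weeks. Cd68 relative to Csf1r differed by -0.39 at 6 weeks and 0.06 at 8 weeks, and Lyve1 by 0.53 and 0.06. Relative to Adgre1 the difference of Cd163 was 1.94 at 6 weeks and 1.05 at 8 weeks, and relative to Cd68 it was 1.67 and 1.29. Relative to Adgre1 at 8 weeks, Mrc1 differed by 0.38, with 3 of 7 cachectic mice above the highest and 2 below the lowest control mouse, and the C1q chains by 0.33 to 0.37.

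**Figure D5:**
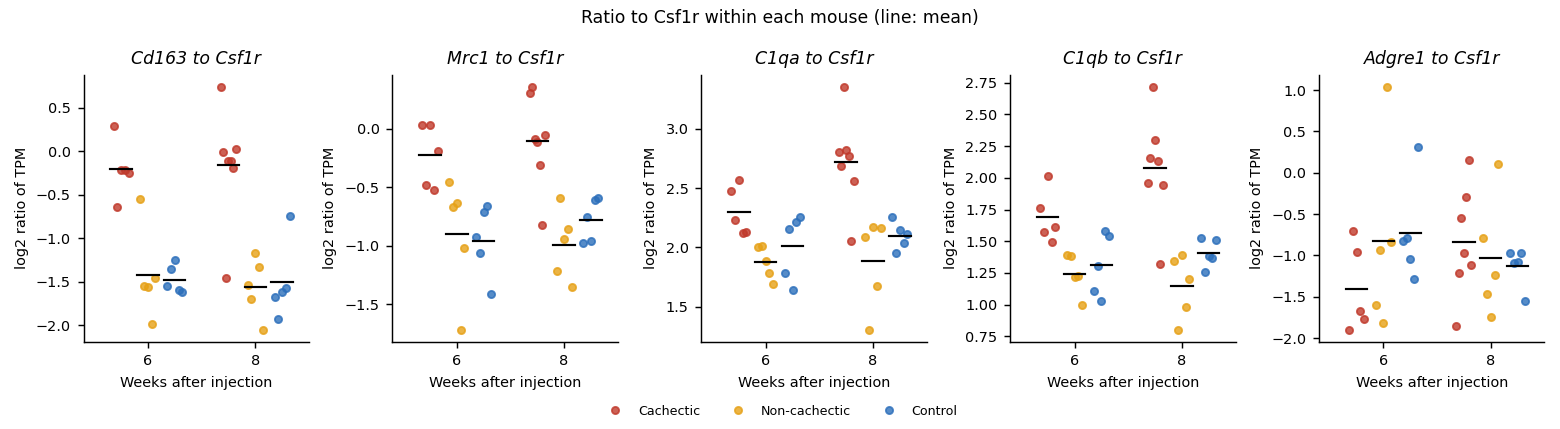
Log2 ratio of Cd163, Mrc1, C1qa, C1qb and Adgre1 to Csf1r in each mouse, by group at 6 and 8 weeks. Points are mice and lines the means. The Cd163 ratio averages -0.20 in cachectic and -1.48 in control mice at 6 weeks.

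Weeks were also compared within cachectic mice. From 2 to 4 weeks Cd163 rose by a log2 fold change of 0.88 (limma, adjusted p = 0.0242) and Mrc1 by 0.60 (adjusted p = 0.0288). These 2 of 10 members are a smaller share than the 38.8% of all genes called higher. Both calls were lost without the libraries listing the fewest genes, 2 of which are cachectic mice at 2 weeks, and also under median-ratio or quantile scaling, with array weights and with only the groups compared. From 4 to 6 weeks no member was called, with log2 fold changes of 0.97 for Cd163 and 0.73 for Mrc1. In that step 0.0957% of all genes were called in either direction, and 5 members had an unadjusted p under 0.05, as did 7.03% of all genes.

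From 4 to 8 weeks Mrc1 just passed the test (0.69; limma, adjusted p = 0.0468), where 1.30% of all genes were called higher, and C1qb was at 0.94 (adjusted p = 0.0543). The call of Mrc1 was lost with pseudocount 0.1, no filter, only the groups compared, the liver covariate or a replicate block, and without the libraries highest in peritoneal macrophage markers. Between 6 and 8 weeks limma called no member and no gene, with no unadjusted p under 0.05 among the members. The change of the cachectic minus control difference between weeks was tested as an interaction. From 4 to 8 weeks this change was 1.13 for Cd163 (limma, adjusted p = 0.482), and 0 of 10 members were called like 0% of all genes, whereas 6 members and 7.53% of all genes had an unadjusted p under 0.05. From 4 to 6 weeks it was 1.32 for Cd163 (adjusted p = 0.899), with 0 members and 0% of all genes called, and 5 members and 3.73% of all genes below that unadjusted value. With array weights 6 members were called in the step from 4 to 6 weeks and 2 in that from 4 to 8 weeks. Whether the difference from control changed between weeks thus depends on that setting. The share of all genes called with these weights is not given here, so these counts are no result about the members in particular.

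Members in non-cachectic mice passed no test against control. At 4, 6 and 8 weeks limma called 0 members and 0% of all genes, and at 2 weeks 0 members beside 4.43% of all genes. The members had no unadjusted p under 0.05 at any week by limma, whereas Dunn's test had 1 at 4 weeks. Log2 fold changes lay between -0.17 and 0.31 at 6 weeks and between -0.09 and 0.29 at 8 weeks. Cachectic against control mice at 4 weeks gave 0 called members, with 0 at an unadjusted p under 0.05 and log2 fold changes between -1.07 and 0.36. There 0.0221% of all genes were called. Against non-cachectic mice at 4 weeks limma called none (0.0295% of all genes) and 2 had an unadjusted p under 0.05 (5.13% of all genes). At 2 weeks none was called (0%) and 1 had such an unadjusted p (12.6%).

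The CSF1R ligands and most factors that set up macrophages passed no test. Of the 11 CSF1 receptor axis and transcription factor genes tested, 2 rose at 8 weeks against control and none fell. They were Csf2rb, the beta chain of the GM-CSF receptor (12.5 ± 5.7 TPM in cachectic and 2.33 ± 0.53 TPM in control mice; log2 fold change 1.83, adjusted p = 3.58e-05), and Runx1 (0.47, adjusted p = 0.0221). Csf1 was at 10.7 ± 5.1 and 11.1 ± 1.9 TPM (log2 fold change -0.21, adjusted p = 0.687). Il34 (-0.17) and Spi1, which encodes PU.1 (0.12), were not called. Itgb2, the partner chain of Itgam, was at 0.23 (adjusted p = 0.827), and the C1q-associated proteases C1ra and C1s1 were at 0.29 and 0.30, not called.

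Of 18 other resident macrophage genes tested, 5 rose and 1 fell at 8 weeks. Clec10a, a galactose-type lectin, was at 9.01 ± 2.8 TPM in cachectic and 2.18 ± 0.48 TPM in control mice (log2 fold change 1.61, adjusted p = 8.24e-07). F13a1, the coagulation factor XIII A chain (1.17), the lectin receptor Cd209d (1.38) and Cbr2 (1.09) also rose. The gene that fell was Mgl2 (-0.75, adjusted p = 0.0235), named after its value was seen, a close paralog of Clec10a with which it can share reads. At 6 weeks 4 of the 18 rose and none fell. F13a1 was also among the genes nearest to Mrc1 from mouse to mouse (r = 0.763, rho = 0.698).

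Monocyte and recruited macrophage genes rose in 5 of 16 at 8 weeks. Ly6c2, a marker of inflammatory monocytes, rose by 1.24 (adjusted p = 1e-05), Plac8 by 2.09 and the chemokine Ccl12 by 1.42. Phagocyte and lysosomal genes rose in 7 of 18, among them the inhibitory Fc receptor Fcgr2b (1.29), Gpnmb (1.14) and the scavenger receptor Cd36 (0.48). Which cells of the whole muscle carried these transcripts, Cd36 among them, was not tested. Of 8 activation genes, 3 rose: Hmox1, the heme oxygenase that acts after hemoglobin uptake (1.60, adjusted p = 0.000617), Il1b (0.63) and Spp1 (1.13). Of 13 complement genes that act with C1q, 3 rose, among them the C1 inhibitor Serping1 (0.95) and the receptor C5ar1 (0.58). None of these 4 lists had a gene that fell. All of these calls are from limma over all genes tested, of which 6.65% rose and 8.12% fell. The median log2 fold change was 0.12 for the CSF1 receptor axis, 0.23 for other resident genes, 0.47 for monocyte and recruited genes, 0.56 for phagocyte genes, 0.43 for activation genes and 0.31 for complement genes, beside -0.09 over all genes.

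Markers of other cells moved in the same mice. The neutrophil list summed to 41.8 to 128 TPM in cachectic mice at 6 weeks and 34.5 to 159 TPM at 8 weeks, above the control ranges of 7.59 to 16.9 and 9.27 to 20.2 TPM. At 8 weeks 3 of its 6 tested genes rose and 1 fell, with a median of 1.21. S100a8, a calcium-binding protein of neutrophils and monocytes, rose by 1.33 (adjusted p = 0.0315). Lcn2, which muscle and other cells also make in inflammation, rose by 3.52 (adjusted p = 6.46e-09), and Mmp9 fell by 0.64. Itgam is also expressed by neutrophils, and their part in these values was not tested.

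Fibroblast genes fell at 8 weeks in 4 of 8 tested and rose in 1 (Dcn, 0.49, also named after its value was seen), with a median of -0.77. Col1a1 fell by 2.12 and Col3a1 by 1.89 on the log2 scale (adjusted p = 0.000672 and 0.000428). Of 8 lymphatic endothelial genes 1 fell (Thy1, -1.02), and of 8 blood endothelial genes 1 fell (Kdr, -0.98) and 1 rose (Esam, 0.57). Of the 8 muscle markers, Mb, the myoglobin gene, fell by 0.70. No dendritic cell, lymphocyte, Kupffer cell, hepatocyte, mesothelial, adipocyte or red cell gene was called at 8 weeks against control, although the hepatocyte list had a median of 0.55 over 10 genes and summed to as much as 2594 TPM in cachectic mice, beside 514 TPM in control mice. With the mean of the hepatocyte list as a covariate the 8-week log2 fold change of Cd163 was 1.48 and that of Mrc1 0.90.

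Among the genes most like the members as a set, by the mean of their standardized values, were Pld4 (r = 0.911, rho = 0.888 in deviations from the condition means, 62 mice), Fxyd5 (0.885, 0.860), C5ar1 (0.866, 0.835) and Soat1 (0.866, 0.875), out of 13568 genes ranked. Pld4 is a phospholipase D family exonuclease of myeloid cells. For single members the nearest genes differed: Itgb2 for Adgre1 (0.950) and Itgam (0.956), Ms4a4a for Cd163 (0.850), Fcgr3 for C1qa after the other C1q chains (0.908) and Dse for Mrc1 (0.764).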

How the data were processed

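RNA of diaphragm was sequenced on a NovaSeq after TruSeq preparation (a stranded mRNA kit per the labels), and the authors deposited 1 table of TPM per gene, made with CLC Genomics Workbench on mm10. TPM keeps no read depth, so the depth per sample is unknown. All 62 columns matched a sample label and 0 columns were left unused. Samples were grouped by treatment and week from the labels, which call the libraries biological replicates.

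The table was analysed as log2(TPM + 1) for the 13578 genes that reached 1 TPM in 5 or more mice. limma 3.58.1 in R 4.3.3 fitted 1 mean per condition with a mean-dependent prior spread, two-sided, with Benjamini-Hochberg adjustment within a comparison. The study used Kruskal-Wallis and Dunn tests. Dunn's test was run here as an alternative, with adjustment over all genes tested. On data simulated for cachectic against control mice at 8 weeks, 76 of 100 genes changed by 1 (log2) and 97 of 100 changed by 2 were recovered, with 11 false calls among 13578 genes.

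The members and lists were chosen with earlier results of these data known. All members were named, and from each other list up to 4 genes with the smallest p at 8 weeks against control, with the ligands and partners of the members named regardless. Members were also compared with pseudocount 0.1, no filter, 3 other scalings, array weights, a replicate block, fewer groups, libraries left out and summed Itgam rows. Positions are GENCODE vM21 and promoters RefSeq GRCm38.p6. Some genes that these rules would name are not reported here.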

Additional observations from a re-analysis of the deposited data

Results flagged for a closer look

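Of 120 combinations of a member and a condition, 16 had a mouse far from the rest of its group (15 high, 1 low). The rule has a nominal rate of about 1 in 20 for normally distributed values. It was applied to TPM and not to log2 values, and 1 library can be flagged for several members. An excess over chance is therefore not shown. In non-cachectic replicate 4 at 6 weeks, Adgre1 was at 53.6, Itgam at 59.8, Csf1r at 26.1 and C1qb at 61.1 TPM. In control replicate 5 at 4 weeks, Adgre1 was at 40.1, Itgam at 54.4, C1qa at 109, C1qb at 65.5 and C1qc at 40.2 TPM. Both libraries are among the 4 highest in peritoneal macrophage markers. Adgre1 also stood apart in non-cachectic replicate 5 at 8 weeks (24.1 TPM), another of those 4, and in control replicate 5 at 6 weeks (16.1 TPM). Other lists were high in non-cachectic replicate 4 at 6 weeks too: 2011 TPM for monocyte and recruited genes and 3144 TPM for activation genes. In control replicate 5 at 4 weeks these sums were 102 and 90.3 TPM, within the range of its condition.

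In non-cachectic replicate 5 at 2 weeks, a library listing few genes, C1qb was at 90.0 and C1qc at 77.9 TPM. Mrc1 was high in cachectic replicate 2 at 4 weeks (14.0 TPM) and in cachectic replicate 2 at 8 weeks (32.3 TPM), and low in non-cachectic replicate 5 at 6 weeks (5.81 TPM). No library stood apart for Cd163, Cd68 or Lyve1. The cause of these values was not tested.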

How the results depend on the processing

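TPM keeps no depth, so counting error could not be set beside any value. No fold change of a member called in the main analysis reversed, and calls moved as follows (members called, of 10). Shares of all genes do not stand beside the counts in this paragraph and the next, and a setting can move calls over all genes too. The counts show how calls depend on the setting and are no result about the members in particular. Cachectic against control at 6 weeks went from 3 to 7 with array weights, with only the groups compared or without the few-gene libraries, to 6 without the hepatocyte-high and 5 without the peritoneal-high libraries (chosen after seeing the data), and 2 to 6 leaving out 1 mouse. At 8 weeks it went from 5 to 1 where a log2 fold change over 1 was also required, and stayed at 5 leaving out any mouse. At 2 weeks the 1 call became 0 with that requirement, the 3 other scalings, array weights, only the groups compared, either set of libraries left out or the liver covariate (0 to 2 leaving out 1 mouse). Against non-cachectic mice at 6 weeks 2 became 1 with the fold requirement, 7 with array weights, 4 with only the groups compared, 5 without the few-gene and 4 without the peritoneal-high libraries, and was 2 leaving out any mouse. At 8 weeks 5 became 2 with the fold requirement and 0 with only the groups compared (3 to 5 leaving out 1 mouse, 3 without non-cachectic replicate 2). At 4 weeks 0 became 2 with array weights. Dunn's test called 0 members in each of these comparisons and in the week comparisons. Its unadjusted p was under 0.05 for 7 and 4 members against control and 5 and 5 against non-cachectic mice at 6 and 8 weeks. The share of all genes at such a Dunn p is not given here. By limma, 20.1% and 27.0% of all genes had an unadjusted p under 0.05 against control, and 17.8% and 25.4% against non-cachectic mice.

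Within cachectic mice, 4 against 2 weeks went from 2 to 0 with the fold requirement, median-ratio or quantile scaling, array weights, only the groups compared or without the few-gene libraries, and to 1 without mitochondrial genes (0 to 6 leaving out 1 mouse). From 6 against 4 weeks 0 became 7 with array weights and 2 without the few-gene libraries (0 to 1 leaving out 1 mouse). For 8 against 4 weeks, 1 became 0 with the fold requirement, pseudocount 0.1, no filter, only the groups compared, the liver covariate or without the peritoneal-high libraries, 4 with median-ratio scaling, 3 with quantile scaling or without mitochondrial genes, and 5 with array weights or without the few-gene libraries (0 to 4 leaving out 1 mouse). The 6-minus-4-week interaction went from 0 to 6 with array weights, and the 8-minus-4-week interaction from 0 to 2 with array weights and 1 without the few-gene libraries (0 to 1 leaving out 1 mouse, 1 without cachectic replicate 3 at 8 weeks). The causes were not tested.

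Other scalings moved the split of calls over all genes. Against control at 6 weeks 763 higher and 159 lower became 467 and 545 (median-ratio), 530 and 729 (quantile) and 382 and 455 (without mitochondrial genes). At 8 weeks 903 and 1102 became 1620 and 1651, 1479 and 1952, and 746 and 2869. Against non-cachectic mice 581 and 213 became 468 and 572, 512 and 743, and 341 and 562 at 6 weeks, and 917 and 840 became 1418 and 1509, 1365 and 1663, and 721 and 2375 at 8 weeks. The median of all genes against control shifted by -0.16, -0.18 and -0.14 at 6 weeks and by 0.11, 0.08 and -0.11 at 8 weeks. Relative to Adgre1 instead of Csf1r, the 6-week log2 ratio differences were 1.94 (Cd163), 1.40 (Mrc1), 0.96 (C1qa), 1.05 (C1qb) and 0.97 (C1qc), and relative to Cd68 1.67, 1.13, 0.68, 0.77 and 0.69. At 8 weeks they were 1.05, 0.38, 0.33, 0.37 and 0.35 relative to Adgre1 and 1.29, 0.62, 0.57, 0.61 and 0.60 relative to Cd68. With a replicate block the 8 against 4 week count went from 1 to 0, and no other count of called members changed by more than 1.5 times. Same-numbered mice had correlations between -0.63 and 0.39. With 5 pairs per comparison, these values cannot tell whether the numbers pair the mice.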
